A study of Mus musculus with 21 samples.

Results

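The genes described here are 39 collagen chains, collagen-processing enzymes and matrix glycoproteins, taken from a fixed list of names. The list was chosen with earlier results of these data known. Of these, 37 had a probe set assigned to a single gene symbol among the 22180 genes measured. Loxl2, a lysyl oxidase homologue, lay only on probe sets that carry several symbols, and Fbn1, which encodes fibrillin, was not listed in the probe annotation used here. The series profiled mouse mammary carcinoma on 21 Affymetrix whole-transcript arrays. Py117 and Py8119 are cell lines, described as clones from MMTV-PyMT transgenic mice, in which the mammary tumour virus promoter drives polyomavirus middle T antigen in mammary epithelium. Each line was profiled in culture, in Ham's F12K medium with 5% serum (3 arrays per line), and as orthotopic tumours (5 arrays each for Py117, Py8119 and Mixed tumours, for which the labels give a ratio of 1:1 of the lines). Tumours grew from 1000000 cells placed in the fourth mammary fat pad in PBS with an equal part of matrigel, a basement-membrane preparation. No culture or tumour was irradiated, and tumours were collected when radiation would usually have been given. Each of Py117 and Py8119 stands for 1 line, and the host strain, age and sex were not given in the sources used here. A tumour sample holds RNA of implanted and host cells, so more cells of a type and more RNA per cell cannot be told apart.

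Collagens are triple helices of alpha chains. Fibrillar collagens (types I, III, V and XI) form the cables of the interstitial matrix, type IV collagen forms the sheet of basement membranes, and type VI and the fibril-associated types link fibrils to each other and to cells. Nascent chains are hydroxylated by lysyl hydroxylases and held in the endoplasmic reticulum by the chaperone Serpinh1 (Hsp47). Procollagen ends are then trimmed by proteinases such as Bmp1, aided by the Pcolce enhancers, and the fibrils are crosslinked by lysyl oxidases. In carcinomas much of this matrix is made by fibroblasts, while carcinoma cells, above all those with mesenchymal traits, make part of it.

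Promoter windows from RefSeq (build GRCm38.p6), reaching from 250 bases before to 50 bases after the annotated start, were on hand for 26 of the 39 genes. Shown first are those of Col4a1 and Col4a2, the type IV chains, whose differences had the same sign in each comparison described further on. The pair lies head to head with starts 21 bases apart. The Col4a1 start (11312826) is at a higher coordinate than the Col4a2 start (11312805), so the annotated genes overlap at their first bases. The windows share 78 bases (chr8:11312777-11312854), which are in capitals. Col4a1 is at chr8:11312777-11313076 on the minus strand and Col4a2 at chr8:11312555-11312854 on the plus strand.
Col4a1: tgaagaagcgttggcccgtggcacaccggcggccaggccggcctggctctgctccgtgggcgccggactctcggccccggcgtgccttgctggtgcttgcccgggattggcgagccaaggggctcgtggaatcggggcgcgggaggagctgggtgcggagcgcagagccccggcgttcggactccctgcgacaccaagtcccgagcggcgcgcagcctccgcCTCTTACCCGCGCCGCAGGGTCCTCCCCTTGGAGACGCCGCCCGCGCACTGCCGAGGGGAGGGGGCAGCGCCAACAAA
Col4a2: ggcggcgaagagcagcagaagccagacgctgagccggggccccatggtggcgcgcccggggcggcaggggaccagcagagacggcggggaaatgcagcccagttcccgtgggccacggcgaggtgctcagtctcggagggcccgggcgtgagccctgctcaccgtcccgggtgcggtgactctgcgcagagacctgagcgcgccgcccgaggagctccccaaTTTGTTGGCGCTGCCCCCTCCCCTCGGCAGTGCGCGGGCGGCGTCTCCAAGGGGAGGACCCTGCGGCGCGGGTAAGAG
Serpinh1 (chr7:99353190-99353489, minus strand) and Sparc (chr11:55420031-55420330, minus strand) are shown because they had the largest differences between the cultures in opposite directions. Capitals mark the 1 match to GGGCGG in Serpinh1. Sparc held none of the motifs searched.
Serpinh1: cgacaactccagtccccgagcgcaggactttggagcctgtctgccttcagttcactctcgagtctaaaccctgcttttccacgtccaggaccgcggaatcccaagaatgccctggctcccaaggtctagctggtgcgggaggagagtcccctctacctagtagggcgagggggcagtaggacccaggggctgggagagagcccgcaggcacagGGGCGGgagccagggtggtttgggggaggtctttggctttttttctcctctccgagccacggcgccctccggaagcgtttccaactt
Sparc: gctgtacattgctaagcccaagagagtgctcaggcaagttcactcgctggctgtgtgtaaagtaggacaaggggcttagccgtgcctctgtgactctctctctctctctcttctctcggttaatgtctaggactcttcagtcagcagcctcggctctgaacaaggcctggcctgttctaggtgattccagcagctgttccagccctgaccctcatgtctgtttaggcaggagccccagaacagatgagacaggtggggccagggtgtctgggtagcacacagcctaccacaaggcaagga
GGGCGG, the core of the GC box, was found on either strand for 20 of the 26 genes (76.9%) and in 35.6% of all 32817 windows on hand. Shares of the 26 count genes and shares of all count windows, so the units differ. The shared stretch of the Col4a1 and Col4a2 windows held 1 match, which lies in the windows of both genes. CCAAT was found in 10 of 26 (38.5%, against 37.4% of all), TATAAA in 4 of 26 (15.4%, against 13.6%) and GAANNTTC, a short form of the heat shock element, in 2 of 26 (7.69%, against 7.86%), each on both strands. Matches of different motifs were counted separately even where they overlap, and a match describes letters and not binding. Besides this pair, Col3a1 with Col5a2 and Col6a2 with Col6a1 were next to each other among protein-coding genes, which makes 3 adjacent pairs.

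Values are log2 signals as the authors deposited them, and each probe set has its own brightness, so levels are compared between samples and not between genes. Array medians ran from 5.24 to 5.53, and arrays of a group correlated with r between 0.969 and 0.994, lowest among Py117 tumours. As a guide to background, chosen after the data were seen, 95% of 1390 olfactory and vomeronasal receptor genes had a mean under 5.31. Col14a1 was under this level in both cultures, Col11a1 and Lox in Py8119 cultures, and Col11a1 also in Py8119 tumours. A difference from such a group is limited by background, and the fold is then given as a bound against this level. Epithelial markers were high in Py117 cultures (list mean 9.73 to 9.85) but were low in Py8119 cultures (6.15 to 6.37), where Epcam, at a mean of 5.07, Esrp1, at 5.09, and Cldn7, at 4.68, were within background and Krt8, at 9.81, and Krt18, at 9.10, were not. The limma test was run on every gene, and calls are those with an adjusted p (Benjamini-Hochberg, all 22180 genes) under 0.05. The sources name replicates as biological without saying from which cultures or animals.

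**Figure D1:**
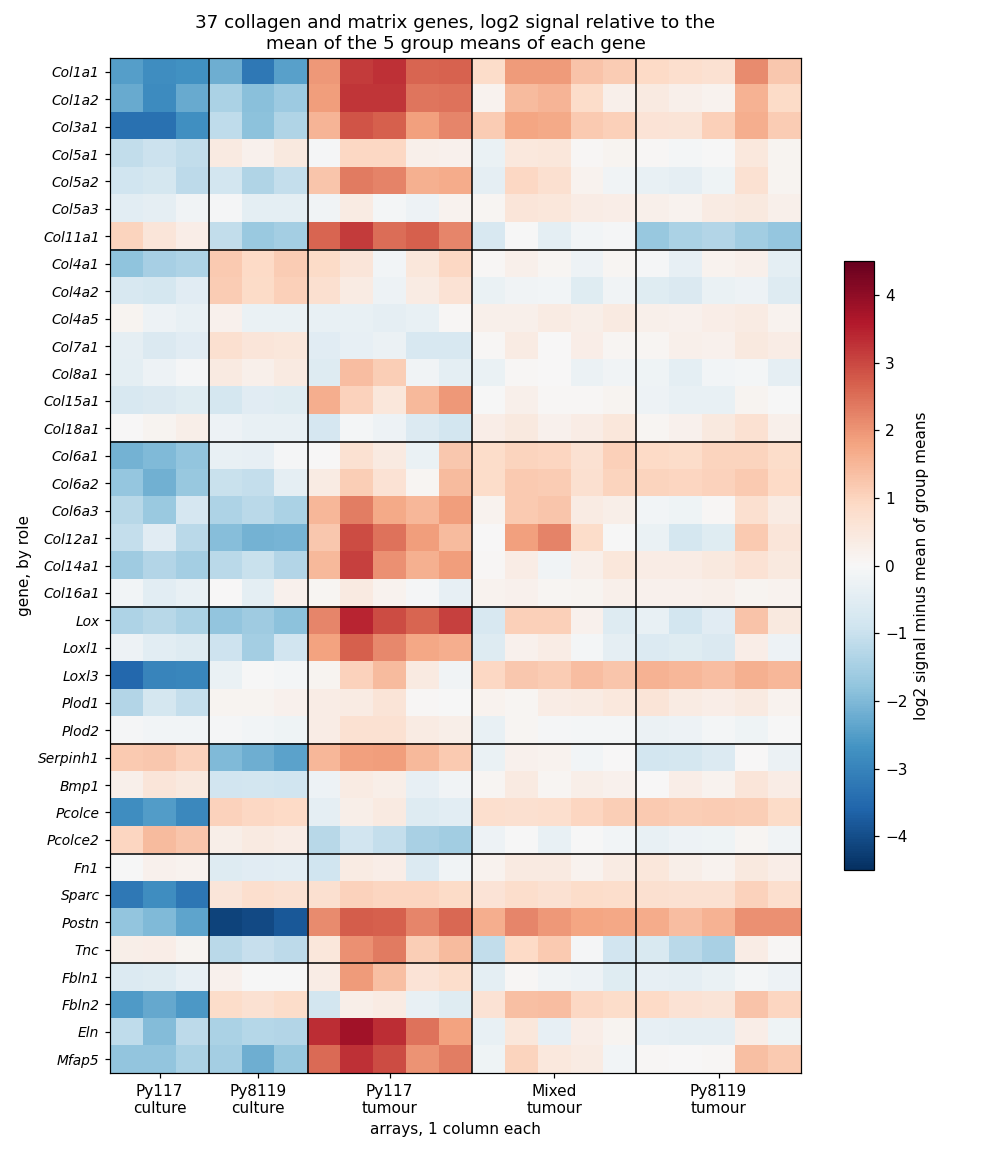
Heat map of the 37 measured genes (rows, in order of role, separated by lines) on the 21 arrays (columns, grouped by sample group). Colour gives the log2 signal minus the mean of the gene's 5 group means, from blue (lower) to red (higher). The interstitial collagens Col1a1, Col1a2 and Col3a1 are blue in all cultures and red in tumours, deepest in Py117 tumours, whereas Pcolce, Fbln2 and Loxl3 are bluest in Py117 cultures.

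In culture the lines differed in most of these genes, in both directions. Py8119 cells carried more RNA for the type IV chains Col4a1 and Col4a2, the calcium-binding matrix protein Sparc, the procollagen enhancer Pcolce, fibulin 2 (Fbln2) and the lysyl oxidase Loxl3. Py117 cells carried more for the chaperone Serpinh1, the minor fibrillar chain Col11a1 and the matricellular proteins Postn and Tnc. Of the 37 genes, 15 were higher and 11 lower in Py8119 cultures (70.3% called, against 26.8% of all genes, 14.5% higher and 12.3% lower). All-gene shares, here and below, include many genes of low signal. With genes below the median of gene means left out, 6209 genes were called in culture, more than the 5942 of all 22180. The share among genes of higher signal was thus far above 26.8%. Between unmixed tumours 7019 genes were then called, in place of 8299 of all 22180, so that share was far above 37.4%. All 37 genes were among those kept, with 15 higher and 11 lower in culture and 10 and 20 between unmixed tumours. The all-gene shares are therefore low references for them, here and below. With arrays centred on their medians, 4419 of all genes were higher and 1861 lower in Py8119 cultures in place of 3208 and 2734, and 15 and 9 of the 37. Without centring, groups did not overlap in 26 of the 37 genes, which were the 26 called. They did not overlap in 42% of all genes, called or not (21.8% higher and 20.2% lower). The median difference of the 37 was 0.04, against -0.01 for all genes, and 12 were at least 2-fold higher and 6 at least 2-fold lower. No all-gene share stands beside the 2-fold counts, here or below, so they make no contrast with all genes.

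Among the fibrillar collagens, Col11a1, which helps set fibril diameter, had signals of 7.52, 7.07 and 6.82 in Py117 cultures and 5.44, 4.88 and 5.00 in Py8119 cultures. All Py117 cultures were above all Py8119 cultures, a difference of -2.04 ± 0.22 (SE, limma adjusted p = 0.000537), or at least 3.55-fold against the background level. Col3a1, the type III chain, went the other way, at 5.24, 5.25 and 5.84 in Py117, close to background, and 7.44, 6.73 and 7.23 in Py8119 cultures (1.69 ± 0.23, adjusted p = 0.00171). Col5a1 was also higher in Py8119 cultures (1.399 ± 0.107). Col1a1, the main chain of type I collagen, had 6.24, 5.95 and 6.02 against 6.53, 5.52 and 6.28, groups that overlapped (0.04 ± 0.25, adjusted p = 0.930). Its partner Col1a2 was higher by 0.81 ± 0.19 (adjusted p = 0.0186), a call that was lost without Py8119 culture 1 (adjusted p = 0.0536).

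Of the 7 basement membrane and network collagens, 4 were higher in Py8119 cultures and 1 was lower. Col4a1 stood at 6.02, 6.31 and 6.42 in Py117 and at 8.98, 8.72 and 8.96 in Py8119 cultures. These groups were far apart, with a 6.21-fold higher level in Py8119 (2.64 ± 0.14, adjusted p = 2.02e-05). Col4a2 ran from 6.84 to 7.13 in Py117 and from 8.49 to 8.78 in Py8119 cultures (1.70 ± 0.12, adjusted p = 8.98e-05). The anchoring fibril chain Col7a1 (1.11 ± 0.11) and Col8a1 (0.58 ± 0.13) were higher as well. Col18a1, the source of endostatin, was lower by a small amount (-0.45 ± 0.10, adjusted p = 0.0137), which was not called without Py117 culture 3 (adjusted p = 0.0533). The beaded filament chains Col6a1 (1.71 ± 0.13) and Col6a2 (1.05 ± 0.21) were higher in Py8119 cultures, and the fibril-associated Col12a1 was lower (-1.13 ± 0.19).

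The crosslinking and processing genes split within their families. Loxl3 was at 5.56, 6.12 and 6.14 in Py117 and 8.80, 9.07 and 9.02 in Py8119 cultures (3.02 ± 0.18, adjusted p = 3.34e-05). The lysyl hydroxylase Plod1 was higher by 1.21 ± 0.14, whereas Plod2, which hydroxylates telopeptides, differed by -0.04 ± 0.09 (adjusted p = 0.812). Lox and Loxl1 were slightly lower in Py8119 cultures (-0.39 ± 0.11, adjusted p = 0.0328, and -0.67 ± 0.19, adjusted p = 0.0389). Both calls rest on few arrays: leaving out any 1 of 5 of the 6 arrays ended each, all but Py8119 culture 2 for Lox and all but Py8119 culture 3 for Loxl1 (highest adjusted p 0.0969 and 0.131). Lox had means of 5.555 in Py117 and 5.163 in Py8119 cultures, the latter under background. Its difference is thus given as at least 1.18-fold, against the background level.

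Serpinh1 had signals of 9.04, 9.06 and 8.90 in Py117 cultures and 5.87, 5.67 and 5.47 in Py8119 cultures, close to background. That is a 10.1-fold lower level in Py8119 cells (-3.33 ± 0.12, adjusted p = 5.48e-06). Pcolce ran the opposite way, at 5.65, 5.91 and 5.53 in Py117 and 9.48, 9.37 and 9.31 in Py8119 cultures (3.70 ± 0.12, 12.96-fold, adjusted p = 3.43e-06). Pcolce was close to background in Py117 cultures, which may limit its fold. Its relative Pcolce2 was lower in Py8119 cultures (-0.89 ± 0.13, adjusted p = 0.00235), as was the procollagen C-proteinase Bmp1 (-1.26 ± 0.11, adjusted p = 0.000192).

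Sparc, a collagen-binding glycoprotein, stood at 7.72, 8.13 and 7.68 in Py117 and at 11.47, 11.68 and 11.62 in Py8119 cultures. This was the largest difference of the 37 genes in culture (3.75 ± 0.14, 13.4-fold, adjusted p = 5.78e-06). Fbln2 was at 6.79, 7.04 and 6.74 in Py117 and 10.18, 10.03 and 10.17 in Py8119 cultures (3.27 ± 0.11, adjusted p = 4.02e-06). Periostin (Postn), which binds collagen, was at 7.59, 7.38 and 7.0 against 5.19, 5.32 and 5.54, the latter close to background (-1.97 ± 0.17, adjusted p = 0.000210). Tenascin C (Tnc) was lower by 1.37 ± 0.10 on the log2 scale in Py8119 cultures and fibronectin (Fn1) by 0.63 ± 0.10. Elastin (Eln) and the microfibril gene Mfap5 were not called (0.08 ± 0.21 and -0.16 ± 0.19).

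**Figure D2:**
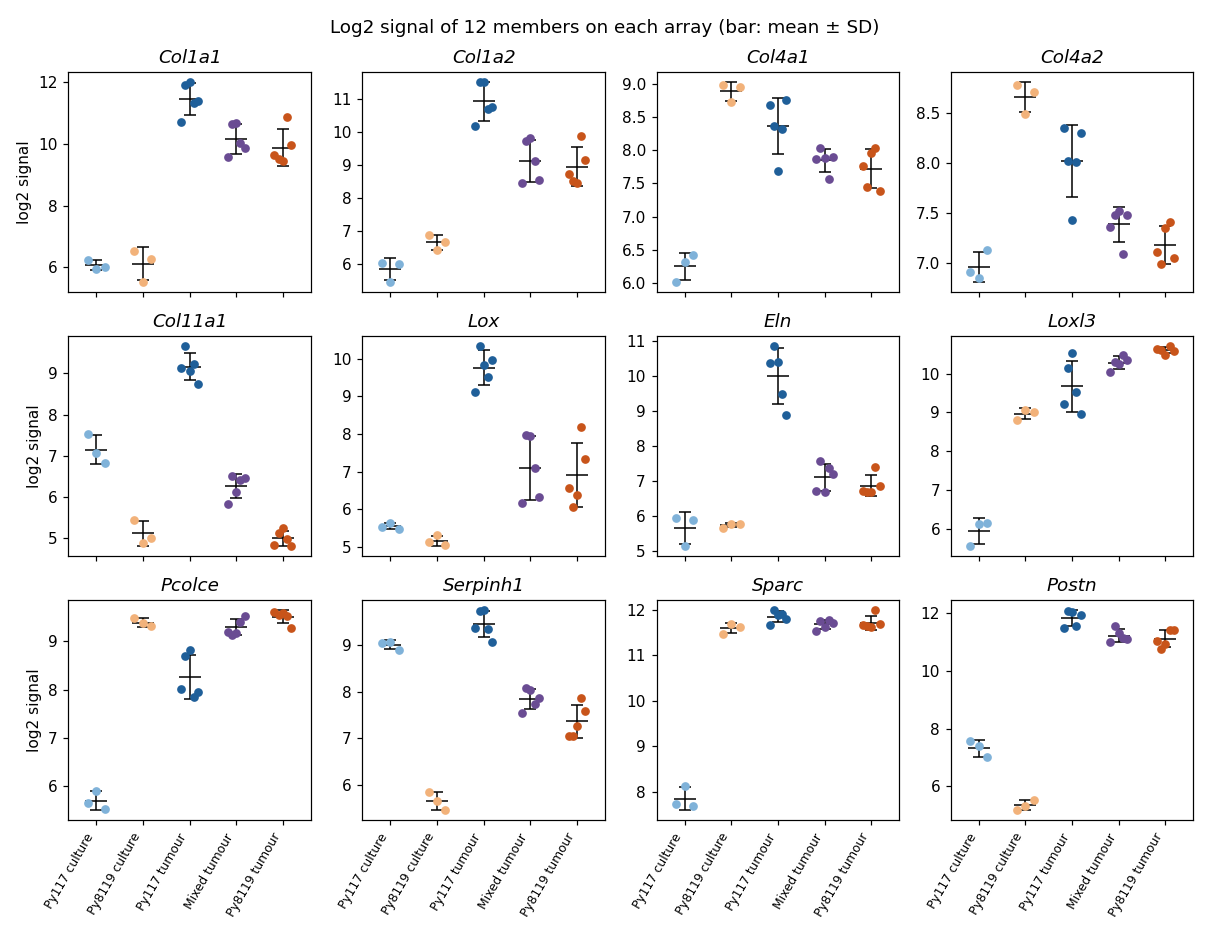
Log2 signal (vertical axis, own scale for each gene) of 12 genes on each array in the 5 sample groups. Dots are arrays and bars are mean ± SD (n = 3 cultures or 5 tumours). Sparc is low in Py117 cultures alone, at 7.68 to 8.13, and Col11a1 and Eln are highest in Py117 tumours, with no overlap with any other group.

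Between unmixed tumours the direction was mostly one way. The interstitial collagens Col1a1, Col1a2, Col3a1 and Col5a2, the crosslinking enzymes Lox and Loxl1, Serpinh1 and the elastic fibre genes Eln and Mfap5 were lower in Py8119 than in Py117 tumours, from 2.30-fold for Col3a1 to 8.83-fold for Eln. Col11a1 was at least 14.4-fold lower. A smaller set was higher, among them Pcolce, Pcolce2, Fbln2, Col18a1 and Col7a1. Of the 37 genes, 8 were higher and 20 lower in Py8119 tumours (75.7% called, against 37.4% of all genes, 21% higher and 16.5% lower). Centring gave 6227 of all genes higher and 2931 lower in place of 4648 and 3651, and 11 and 20 of the 37. Without centring, groups did not overlap in 23 of the 37 genes, all among the 28 called. They did not overlap in 27.6% of all genes, called or not (15.7% higher and 11.9% lower). The median difference was -0.64, against 0.01 for all genes. Of the 37, 16 were at least 2-fold lower and 3 at least 2-fold higher, again with no all-gene share beside them.

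Of the 7 fibrillar collagens, 5 were lower in Py8119 tumours and none higher, with a median difference of -1.59. Col11a1 had signals of 9.14, 9.67, 9.06, 9.22 and 8.74 in Py117 tumours and 4.82, 5.11, 5.23, 4.97 and 4.80 in Py8119 tumours. All Py8119 tumours were under the background level, so the measured difference of -4.18 ± 0.16 (adjusted p = 1.28e-12) is given as at least 14.4-fold, against that level. Col1a2 was at 10.17, 11.52, 11.51, 10.70 and 10.75 in Py117 and at 8.72, 8.52, 8.45, 9.88 and 9.15 in Py8119 tumours. Here Py8119 tumour 4 came nearest to the Py117 tumours, without reaching them (-1.99 ± 0.33, adjusted p = 7.68e-05). For Col1a1 the same tumour did overlap, with 9.63, 9.50, 9.44, 10.87 and 9.95 in Py8119 against 10.70, 11.90, 12.01, 11.34 and 11.38 in Py117 tumours (-1.59 ± 0.29, adjusted p = 0.000207). Col5a2 (-1.84 ± 0.27) and Col3a1 (-1.20 ± 0.24, groups overlapping) were lower too, and Col5a1 (-0.35 ± 0.19, adjusted p = 0.185) and Col5a3 (0.29 ± 0.12, adjusted p = 0.0703) were not called. Col5a3 came under the threshold without Py117 tumour 2 (adjusted p = 0.0114).

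Basement membrane and network collagens were divided, with 3 higher and 3 lower of 7. Col4a1 was at 8.68, 8.36, 7.69, 8.31 and 8.75 in Py117 tumours and at 7.76, 7.44, 7.96, 8.04 and 7.39 in Py8119 tumours. Py117 tumour 3 lay among the Py8119 tumours, and the difference was -0.64 ± 0.18 (adjusted p = 0.00675), opposite in sign to culture. Col4a2 was lower by 0.84 ± 0.15 on the log2 scale (adjusted p = 0.000178), also opposite to culture. Col15a1, a collagen of basement membrane zones, was lower by 1.46 ± 0.19. Col18a1 (0.83 ± 0.14), Col7a1 (0.79 ± 0.11) and Col4a5 (0.52 ± 0.09) were higher in Py8119 tumours, Col7a1 as in culture and Col18a1 opposite to it.

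Of the beaded filament and fibril-associated collagens, Col6a3 (-1.60 ± 0.23), Col12a1 (-1.96 ± 0.46) and Col14a1 (-1.58 ± 0.22) were lower in Py8119 tumours. Their type VI partners were not called: Col6a1 was at 10.16, 10.82, 10.54, 9.83 and 11.34 in Py117 and at 11.03, 10.96, 11.13, 11.15 and 10.94 in Py8119 tumours (0.50 ± 0.20, adjusted p = 0.0533). The Py117 tumours spanned the whole range of the Py8119 tumours. Without Py117 tumour 2 or 5 Col6a1 was called (lowest adjusted p 0.00143), and without Py117 tumour 5 so was Col6a2 (0.30 ± 0.19 with all arrays, adjusted p = 0.0246 without it). The mean of both Col6a1 probe sets was also called (0.78, adjusted p = 0.00826).

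Lox, which crosslinks collagen and elastin, was at 9.11, 10.34, 9.84, 9.52 and 9.97 in Py117 tumours and at 6.56, 6.07, 6.39, 8.19 and 7.33 in Py8119 tumours. Every Py117 tumour was higher, a 7.19-fold difference (-2.85 ± 0.40, adjusted p = 1.44e-05). Loxl1, an elastin crosslinker, was lower by 2.36 ± 0.22 on the log2 scale (5.15-fold, adjusted p = 1.30e-07) and Plod2 by 0.63 ± 0.10. Loxl3 was instead higher, at 10.64, 10.60, 10.48, 10.71 and 10.58 in Py8119 tumours against 9.23, 10.14, 10.53, 9.51 and 8.95 in Py117 tumours (0.93 ± 0.22, adjusted p = 0.00192). Py117 tumour 3 overlapped the narrow Py8119 range.

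Serpinh1 was at 9.36, 9.72, 9.73, 9.33 and 9.06 in Py117 tumours and at 7.04, 7.06, 7.26, 7.87 and 7.60 in Py8119 tumours. The groups were separate and the level was 4.21-fold lower in Py8119 tumours (-2.08 ± 0.17, adjusted p = 1.60e-08). Pcolce was at 8.01, 8.70, 8.82, 7.85 and 7.95 in Py117 and at 9.60, 9.55, 9.59, 9.53 and 9.28 in Py8119 tumours (1.24 ± 0.17, adjusted p = 8.49e-06). Pcolce2 was higher by 1.08 ± 0.12 (adjusted p = 1.27e-06), opposite to culture. Bmp1, lower in Py8119 cultures, differed by 0.30 ± 0.13 in tumours (adjusted p = 0.0924), and was called without Py117 tumour 2 or 3 (lowest adjusted p 0.0213).

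Eln had signals of 10.38, 10.87, 10.41, 9.50 and 8.88 in Py117 tumours and 6.72, 6.68, 6.67, 7.39 and 6.87 in Py8119 tumours. The groups were more than 1 unit apart at their nearest, and the level was 8.83-fold lower in Py8119 tumours (-3.14 ± 0.29, adjusted p = 1.10e-07). Mfap5 (-2.08 ± 0.30) and Fbln1 (-1.27 ± 0.22) were lower, and Fbln2 was higher (1.09 ± 0.21). Tnc (-2.07 ± 0.45, adjusted p = 0.00120) and Postn (-0.70 ± 0.15, adjusted p = 0.00111) were lower in Py8119 tumours. Sparc lay between 11.66 and 11.98 in Py117 and between 11.61 and 11.98 in Py8119 tumours (-0.13 ± 0.09, adjusted p = 0.321). Fn1 was called as higher (0.53 ± 0.19, adjusted p = 0.0346, groups overlapping), a call lost without any 1 of 7 tumours (Py117 tumours 1, 4 and 5 and Py8119 tumours 1, 2, 4 and 5, highest adjusted p 0.101).

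**Figure D3:**
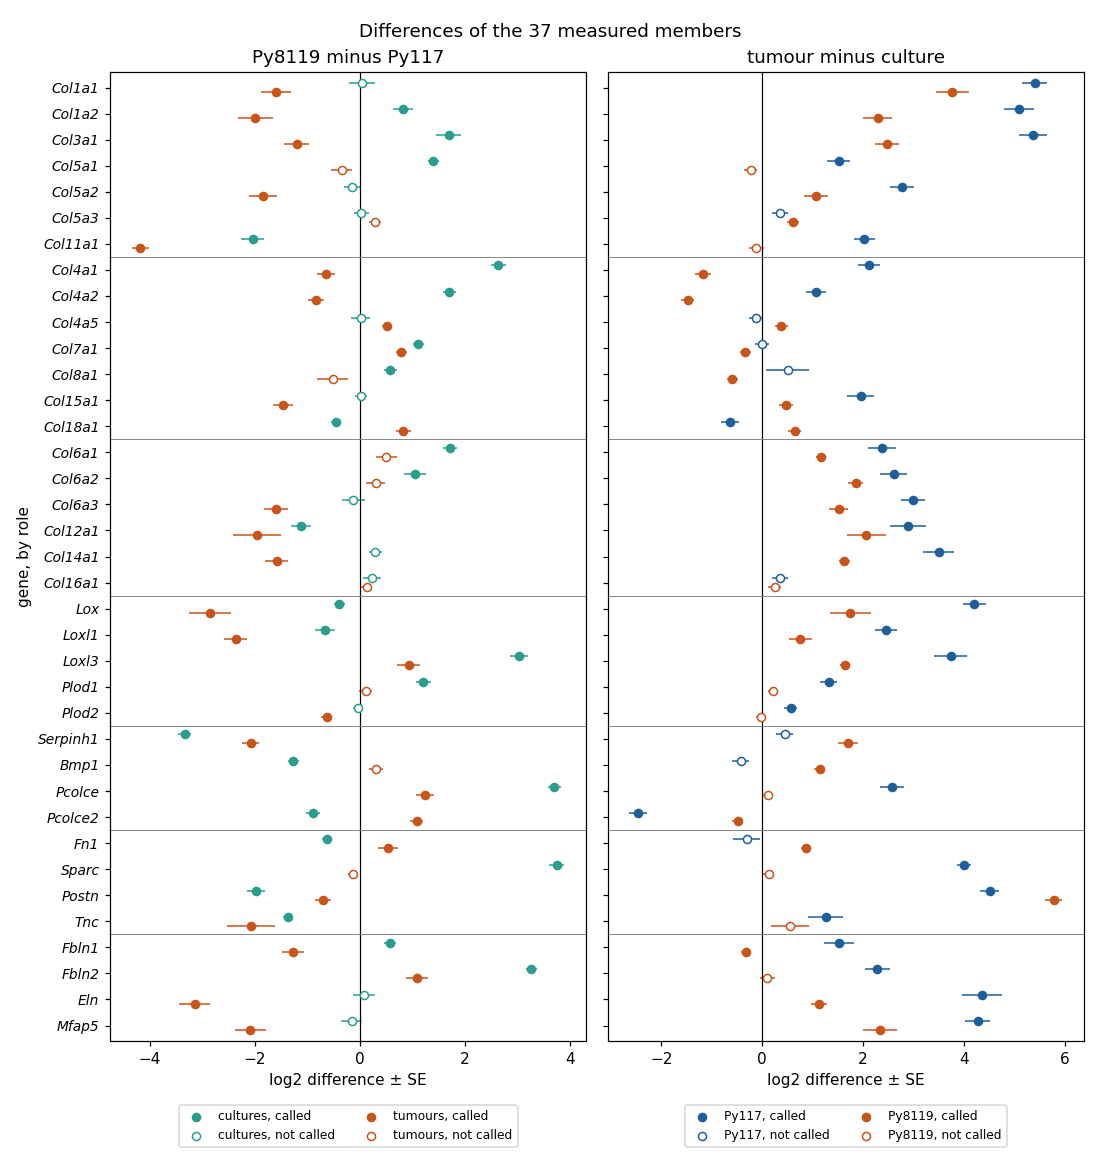
Log2 differences ± SE of the 37 genes, in order of role. The left panel gives Py8119 minus Py117 in cultures and in tumours, and the right panel tumour minus culture in each line, with filled points for called genes. Col4a1 lies right of 0 in cultures (2.64) and left of 0 in tumours (-0.64), and the type I and III chains lie furthest right in Py117 tumours.

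Set side by side, the calls in culture and in tumours took different forms by gene. Col7a1, Fbln2, Loxl3 and Pcolce were higher in Py8119 in both settings, and Col11a1, Col12a1, Lox, Loxl1, Postn, Serpinh1 and Tnc lower in both. For Lox the culture difference was at least 1.18-fold, against a group under background. Col1a2, Col3a1, Col4a1, Col4a2 and Fbln1 were higher in Py8119 cultures and lower in Py8119 tumours. Col18a1, Fn1 and Pcolce2 had the reverse pattern. Col1a1, Col5a2, Col6a3, Col14a1, Col15a1, Eln, Mfap5 and Plod2 were called as lower in tumours and not called in culture.

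Other cell types and the spread between tumours moved with these differences, and their part in them was not tested. Of 12 fibroblast markers outside the list, 8 were lower and 1 higher in Py8119 tumours, with a median of -0.94, among them lumican (Lum, -2.63 ± 0.43) and decorin (Dcn, -2.02 ± 0.25). Pdgfrb was the higher one (0.90 ± 0.13). The log2 of the summed signal of the 12 ran from 12.44 to 13.14 in Py117, from 11.73 to 12.02 in Mixed and from 11.73 to 12.11 in Py8119 tumours, and from 10.465 to 10.62 in the cultures. In cultures Dcn, Dpt, Fap, Lum, Thy1, Has1 and Pi16 were within background. All 10 endothelial markers were lower in Py8119 tumours (median -1.62), with summed levels of 11.34 to 12.21 in Py117, 10.535 to 10.76 in Mixed and 10.01 to 10.45 in Py8119 tumours, and 7 of 10 pericyte and smooth muscle markers were lower. Of 10 macrophage markers 7 were higher (median 0.46), all 7 measured T cell markers were lower (median -1.52), and 7 of 9 epithelial markers were lower. Skeletal muscle markers had 1 lower of 6.

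Adipocyte markers set Py117 tumours apart from each other, and 8 of 9 were lower in Py8119 tumours. Their mean signal was 8.10, 5.75, 5.94, 7.29 and 8.22 in Py117 tumours 1 to 5, from 5.66 to 6.09 in Mixed and from 5.53 to 6.31 in Py8119 tumours. The log2 of their summed signal ran from 9.22 to 12.3 in Py117, from 9.07 to 9.95 in Mixed and from 8.88 to 9.90 in Py8119 tumours, and Adipoq had means of 5.79, 4.77 and 4.72. Fibrillar collagens had list means of 8.84, 9.83, 9.66, 9.14 and 9.20 in the same Py117 tumours, so the highest were in tumours 2 and 3, which had the least fat signal and the highest fibroblast marker means of the group (8.79 and 8.39). Among Py8119 tumours the list means were 7.58, 7.52, 7.67, 8.32 and 7.83, highest in tumour 4, which also had the highest fibroblast (7.70) and the highest adipocyte marker mean (6.31) of its group. The median SD of the 37 genes was 0.453 in Py117 tumours, against 0.205 for all genes, and 0.191 in Py8119 tumours, against 0.15.

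With the 3 Py117 tumours of highest adipocyte signal left out (1, 4 and 5), a choice made after the data were seen, 7 genes were higher and 21 lower in Py8119 tumours. With the adipocyte mean as a covariate 6 were higher and 21 lower. Of all genes, 4648 were higher and 3651 lower with neither change, 4657 and 3529 without those tumours, and 4452 and 3280 with the covariate. Col4a1 (-0.31, adjusted p = 0.253, and -0.27, adjusted p = 0.279), Loxl3 (0.27, adjusted p = 0.132, and 0.31, adjusted p = 0.124) and Fn1 (-0.01, adjusted p = 0.955, and 0.10, adjusted p = 0.733) were then not called, in that order of the settings. Differences that stayed called but shrank by more than 1.5 times without those tumours were Col4a2 (-0.54), Col15a1 (-0.91), Col18a1 (0.49), Pcolce (0.75) and Fbln2 (0.56). Col8a1 (-1.49, adjusted p = 8.74e-07) and Col5a1 (-0.83, adjusted p = 0.00289) were called as lower. With the covariate they were called too (-1.38 and -0.75). Col8a1 had spread most among Py117 tumours, at 8.69, 10.66, 10.36, 9.11 and 8.83, against 8.82 to 9.18 in Py8119 tumours.

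**Figure D4:**
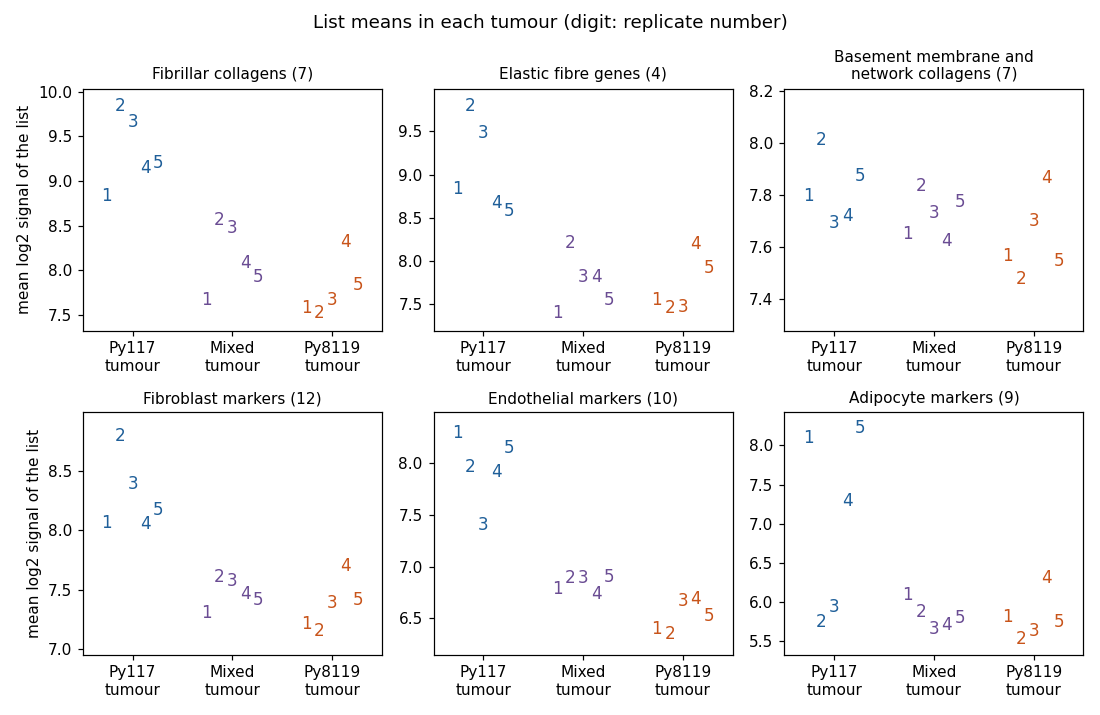
Mean log2 signal of 6 gene lists (vertical axis, number of genes in brackets) in each tumour, with the replicate number as the symbol. Fibrillar collagens are highest in Py117 tumours 2 and 3 (9.83 and 9.66), which have the lowest adipocyte means of that group (5.75 and 5.94).

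The mean of Mixed tumours lay nearer to Py8119 than to Py117 tumours in 18 of 19 genes whose place between the groups was measured, with all arrays and without any 1 of them, and the exception, Col12a1, lay near the middle. Places of genes outside the 37 were not measured. Among all genes too, more were called between Mixed and Py117 tumours (36.1%) than between Mixed and Py8119 tumours (1.78%). Against Py117 tumours, which serve as the reference for both comparisons, 8 of the 37 genes were higher and 19 lower in Mixed tumours (73% called, against 36.1% of all genes, 19.2% higher and 16.9% lower). Centring gave 5075 and 2952 of all genes in place of 4263 and 3744, and 10 and 18 of the 37. The median difference was -0.56, against -0.03 for all genes. Groups did not overlap in 20 of the 37 genes, all among the 27 called, and in 24.8% of all genes, called or not (14% higher and 10.8% lower). Eln was at 6.73, 7.57, 6.69, 7.36 and 7.19 in Mixed tumours, all below the Py117 tumours (-2.90 ± 0.29, adjusted p = 4.65e-07). Lox was at 6.16, 7.97, 7.95, 7.10 and 6.33 (-2.65 ± 0.40, adjusted p = 3.93e-05). Serpinh1 was at 7.55, 8.08, 8.02, 7.73 and 7.87 (-1.59 ± 0.17, adjusted p = 7.01e-07). Mfap5 (-2.31 ± 0.30), Loxl1 (-2.13 ± 0.22), Col14a1 (-1.83 ± 0.22), Col1a2 (-1.80 ± 0.33), Col5a2 (-1.57 ± 0.27) and Col1a1 (-1.31 ± 0.29) were lower, and Fbln2 (1.22 ± 0.21), Pcolce2 (1.11 ± 0.12) and Pcolce (1.02 ± 0.17) higher.

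Some of these calls depended on 1 tumour. Loxl3 (0.61 ± 0.22, adjusted p = 0.0342) was not called without Py117 tumour 1, 4 or 5 or Mixed tumour 2, 3, 4 or 5 (highest adjusted p 0.0962). Col5a3 (0.34 ± 0.12, adjusted p = 0.0319) was not called without Py117 tumour 1, 3 or 4 or Mixed tumour 2, 3 or 4 (highest 0.0854). Col4a1 (-0.51 ± 0.18, adjusted p = 0.0296) was lost without Py117 tumour 1 or 5 or Mixed tumour 4 (highest 0.0816), and Tnc (-1.47 ± 0.45, adjusted p = 0.0166) without Mixed tumour 1 or 5 (highest 0.0533). Genes outside the threshold entered it without 1 tumour as well: Col6a1 and Col6a2 without Py117 tumour 5, Col6a1 and Fn1 without Py117 tumour 2, Fn1 without Py117 tumour 3 and Col12a1 without Mixed tumour 3 (adjusted p as low as 0.00176 for Col6a1, 0.0443 for Col6a2, 0.0102 for Fn1 and 0.0327 for Col12a1). Without the 3 Py117 tumours of highest adipocyte signal Col4a1 (-0.18, adjusted p = 0.507), Col4a2 (-0.34, adjusted p = 0.122), Col5a3 (0.21, adjusted p = 0.287) and Loxl3 (-0.05, adjusted p = 0.771) were not called, and Col3a1 moved from -0.84 to -1.37.

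Against Py8119 tumours, Col11a1 was the 1 gene of the 37 that was called (2.7%, against 1.78% of all genes, 1.61% higher and 0.162% lower). It was at 5.82, 6.51, 6.11, 6.42 and 6.46 in Mixed tumours, above every Py8119 tumour, as 3.85% of all genes were, and below every Py117 tumour (1.28 ± 0.16 over Py8119, adjusted p = 0.000117). Since Py8119 tumours were under the background level, this is at least 1.93-fold. The share called is near that of all genes. Next in size came Col12a1 (0.97 ± 0.46, adjusted p = 0.372), Tnc (0.60 ± 0.45, adjusted p = 0.604), Serpinh1 (0.48 ± 0.17, adjusted p = 0.198) and Col6a3 (0.48 ± 0.23, adjusted p = 0.379), none of them called. Loxl3 was lower in every Mixed tumour than in any Py8119 tumour, as were 1.69% of all genes. It ran from 10.03 to 10.48 against 10.48 to 10.71 and was not called (-0.32 ± 0.22, adjusted p = 0.552). Groups did not overlap in 2 of the 37 genes and in 5.54% of all genes, which are near to each other as shares.

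The place of the Mixed tumours between the unmixed groups was measured on the linear scale for the 19 of the 37 genes called between Py117 (0%) and Py8119 tumours (100%) with a difference of at least 1. The median was 91.7% (85.5% on the log2 scale). The 16 genes lower in Py8119 tumours ranged from 60.3% to 106.6% with a median of 91.4%, and the 3 higher genes had a median of 103.3%. Col11a1 was at 91.7% ± 2.67 (SD, n = 5) on the linear scale and at 69.5% on the log2 scale, against an end under background. With that end set to the background level it was at 93% and 75.3%. Eln was at 97.8% ± 3.63 and Serpinh1 at 88.2% ± 6.33. Col12a1 was lowest at 60.3% ± 52.2, with Mixed tumours 2 and 3 at 9.71 and 10.08 and the others at 7.84 to 8.70. It was at 50.4% on the log2 scale, and at 46.8% without Py117 tumour 2, 49.2% without Mixed tumour 1 and 49% without Mixed tumour 5. These places describe signal, and the share of each line's cells in a tumour was not measured. No place was computed for genes outside the 37, so the median has no all-gene value beside it.

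From culture to tumour, most of these genes rose in Py117 samples. Of the 37 genes, 27 were higher and 2 lower in Py117 tumours than in Py117 cultures (78.4% called, against 30.7% of all genes, 12.4% higher and 18.3% lower), and 26 were at least 2-fold higher. Groups did not overlap in 29 of the 37 genes, which were the 29 called, and in 35.6% of all genes, called or not (13.4% higher and 22.1% lower). The median difference was 2.11, against -0.09 for all genes. Cultures and tumours differ in host cells, matrigel and growth conditions at once, and these and any batch effect cannot be told apart.

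Col1a1 rose from 5.95 to 6.24 in cultures to 10.70 to 12.01 in tumours (5.39 ± 0.26, 42.0-fold, adjusted p = 1.61e-07). Col3a1 (5.37 ± 0.28, 41.2-fold) and Col1a2 (5.09 ± 0.30, 34.0-fold) rose alike. Col3a1 was close to background in Py117 cultures, which may limit its fold. The second Col1a2 probe set had means of 3.93 in Py117 cultures and 8.04 in Py117 tumours. Col11a1 rose by 2.02 ± 0.21, Col4a1 by 2.11 ± 0.22 and Col4a2 by 1.06 ± 0.19. Eln (4.36 ± 0.40), Mfap5 (4.27 ± 0.25), Lox (4.20 ± 0.23), Postn (4.503 ± 0.182) and Sparc (4.00 ± 0.13) rose by 4 units or more. Loxl3 rose by 3.73 ± 0.33 and Pcolce by 2.58 ± 0.23. In Py117 cultures Lox (mean 5.555), Eln and Pcolce were close to background, which may limit their rises. Pcolce2 fell by 2.46 ± 0.17 on the log2 scale (adjusted p = 2.51e-06), from 10.29, 10.73 and 10.58 in cultures to 8.05, 8.45, 8.24, 7.85 and 7.77 in tumours. Col18a1 fell by 0.64 ± 0.17 (adjusted p = 0.0169), a call lost without Py117 culture 2 or 3 (highest adjusted p 0.0750), and Tnc (1.26 ± 0.34, adjusted p = 0.0176) was not called without any 1 of the 3 cultures (highest 0.0655). Serpinh1 was not called (0.44 ± 0.16, adjusted p = 0.0606) unless Py117 tumour 5 was left out (adjusted p = 0.0184). Bmp1 was called without Py117 tumour 2 or 3 (lowest adjusted p 0.0362) and Col16a1 without Py117 tumour 5 (adjusted p = 0.0412).

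In Py8119 samples 22 of the 37 genes were higher and 6 lower in tumours than in cultures (75.7% called, against 37.1% of all genes, 16.3% higher and 20.9% lower). The median difference was 0.64, against -0.05 for all genes, and 16 were at least 2-fold higher and 2 at least 2-fold lower. Groups did not overlap in 27 of the 37 genes, all among the 28 called, and in 38.2% of all genes, called or not (16.7% higher and 21.5% lower). Postn rose most, from 5.19, 5.32 and 5.54 to 11.05, 10.77, 10.95, 11.42 and 11.43 (5.77 ± 0.16, 54.6-fold, adjusted p = 8.11e-09). Its culture signals were close to the background level of 5.31, which may limit this fold. Col1a1 rose by 3.76 ± 0.33 (13.6-fold, adjusted p = 1.51e-05), Col3a1 by 2.47 ± 0.24, Col1a2 by 2.29 ± 0.29 and Mfap5 by 2.34 ± 0.34. Serpinh1 rose by 1.70 ± 0.19 (adjusted p = 7.74e-05), Lox by 1.75 ± 0.40 and Loxl3 by 1.64 ± 0.10. Since Lox was under background in Py8119 cultures, its rise is at least 3.02-fold.

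Of the type IV chains, Col4a5 was higher in Py8119 tumours than cultures (0.38 ± 0.12, adjusted p = 0.0349) and Col4a1 and Col4a2 were lower, Col4a2 by -1.48 ± 0.12 (adjusted p = 1.15e-05) and Col4a1 by -1.17 ± 0.16 (adjusted p = 0.000271). Pcolce2 (-0.49 ± 0.11), Col8a1 (-0.59 ± 0.11), Col7a1 (-0.33 ± 0.10) and Fbln1 (-0.33 ± 0.10) were lower too. Sparc (0.13 ± 0.11, adjusted p = 0.400), Pcolce (0.12 ± 0.10, adjusted p = 0.380), Fbln2 (0.10 ± 0.15) and Col11a1 (-0.12 ± 0.15) were not called. Leaving out 1 array ended the calls of Col15a1 (Py8119 culture 1, adjusted p = 0.0712), Col7a1 (culture 1 or tumour 1, 2 or 3, highest 0.107), Fbln1 (culture 1 or 3 or tumour 1, 2 or 3, highest 0.121), Loxl1 (culture 2 or tumour 5, highest 0.0985) and Col4a5 (culture 2 or 3 or tumours 1 to 4, highest 0.134). It brought Col16a1 (culture 3, adjusted p = 0.0487) and Col5a1 (tumour 4, adjusted p = 0.0342) under the threshold. With arrays centred on their medians, the all-gene calls of this comparison were 2358 higher and 9046 lower in place of 3606 and 4628, while the 37 genes had 20 higher and 7 lower. In Py117 samples centring gave 2203 higher and 7529 lower in place of 2759 and 4052, with 27 and 3 of the 37 genes.

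The difference between the lines' changes was tested directly as an interaction. It was called for 29 of the 37 genes (78.4%, against 13.5% of all genes, 7.5% positive and 5.99% negative), 23 with a smaller increase or larger decrease in Py8119 and 6 the other way. Their median was -1.48, against 0.03 for all genes. Sparc had the largest value (-3.87 ± 0.17, adjusted p = 3.91e-10), as it rose by 4.00 ± 0.13 in Py117 and was already at 11.47 to 11.68 in Py8119 cultures. For Col4a1 (-3.28 ± 0.29, adjusted p = 9.14e-07) and Col4a2 (-2.54 ± 0.24, adjusted p = 1.92e-06) the lines moved in opposite directions, as they did for Fbln1 (-1.85 ± 0.34) and, with the signs exchanged, Col18a1 (1.28 ± 0.23). Eln (-3.23 ± 0.47), Col3a1 (-2.89 ± 0.41), Col1a2 (-2.80 ± 0.45), Lox (-2.45 ± 0.50) and Pcolce (-2.45 ± 0.27) rose less or not at all in Py8119. Lox was under background in Py8119 cultures, at a mean of 5.163, so its interaction value is limited by background. Pcolce2 (1.97 ± 0.21), Bmp1 (1.56 ± 0.22), Postn (1.27 ± 0.26), Serpinh1 (1.26 ± 0.26) and Fn1 (1.16 ± 0.31) were positive. All 6 positive genes were lower in Py8119 than in Py117 cultures. The interaction subtracts the culture difference, so this is in part built in. The same applies to negative genes that were higher in Py8119 cultures, such as Sparc, Col4a1, Col4a2 and Pcolce. Col11a1, Lox and Loxl1 were negative although lower in Py8119 cultures. Col1a1 (-1.63 ± 0.45, adjusted p = 0.0226) was not called without Py117 culture 2 or 3 or Py8119 culture 1 or 3 (highest adjusted p 0.0654), nor Col6a1 (-1.21 ± 0.33) without Py117 culture 1 or Py8119 culture 3 (highest 0.0553). Col4a5 was called without Py8119 culture 1 or Py117 tumour 5 (lowest 0.0265). Col6a1 also lost its call with the mean of its probe sets (-0.39, adjusted p = 0.555).

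Other genes of collagen metabolism outside the list moved in both directions. Of 19 measured genes for collagen modification and export, 6 were higher and 3 lower in Py8119 cultures (47.4% called, against 26.8% of all genes), and 5 were higher and 8 lower in Py8119 tumours (68.4%, against 37.4%). The procollagen N-proteinase Adamts14 was at 6.17, 6.34, 6.58, 6.28 and 6.48 in Py117 tumours and between 8.52 and 8.68 in Py8119 tumours, without overlap (2.24 ± 0.08, 4.71-fold, adjusted p = 9.03e-13), and was higher in culture too (1.15 ± 0.12). Its relative Adamts3 was lower in Py8119 tumours (-1.24 ± 0.17). The prolyl hydroxylase P3h2, which acts on type IV collagen among others, was lower in Py8119 cultures (-1.42 ± 0.13) and tumours (-1.77 ± 0.18), and P3h1 was higher in both (1.33 ± 0.10 and 0.63 ± 0.12).

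Of 24 other collagen chains, 2 were lower and none higher in Py8119 cultures (8.33% called, against 26.8% of all genes), and 9 were lower and 1 higher in Py8119 tumours (41.7%, near the 37.4% of all genes, median -0.21). The chains with the largest differences in tumours are, like Col11a1, known from cartilage fibrils. Col9a1, a type IX chain, was at 9.57, 9.58, 9.57, 9.87 and 9.59 in Py117 tumours, 6.70, 7.30, 7.25, 7.25 and 7.44 in Mixed tumours and 6.40, 6.24, 6.01, 5.41 and 5.67 in Py8119 tumours. The 3 groups were separate, with a 12.9-fold lower level in Py8119 than in Py117 tumours (-3.69 ± 0.17, adjusted p = 1.11e-11) and a higher one in Mixed than in Py8119 tumours (1.25 ± 0.17, adjusted p = 0.000274). Col2a1, the type II chain (-1.91 ± 0.25), and Col9a3 (-1.89 ± 0.12) were lower in Py8119 than in Py117 tumours. Col9a1 (2.60 ± 0.20), Col2a1 (1.94 ± 0.36) and Col9a3 (1.33 ± 0.19) rose from Py117 culture to tumour, where 5 of the 24 were higher and none lower (20.8% called, against 30.7% of all genes). The basement membrane chain Col4a6 was higher in Py8119 tumours (1.06 ± 0.09).

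Of 10 measured genes for collagen receptors and uptake, 3 were higher and 2 lower in Py8119 cultures (50% called, against 26.8% of all genes) and 1 higher and 5 lower in Py8119 tumours (60%, against 37.4%). Integrin alpha 2 (Itga2, -2.81 ± 0.18) and the collagen receptor kinase Ddr1 (-1.22 ± 0.12) were lower in Py8119 cultures, and the related kinase Ddr2, a receptor for fibrillar collagen, was higher (0.88 ± 0.10). In tumours the collagen uptake receptor Mrc2 (-1.86 ± 0.12), the collagenolytic protease cathepsin K (Ctsk, -1.33 ± 0.35) and integrin alpha 1 (Itga1, -1.03 ± 0.14) were lower. Of 10 other elastic fibre genes, 3 were lower and 1 higher in Py8119 cultures (40% called), and 6 were lower and 3 higher in Py8119 tumours (90% called, median -1.17), against the same shares of all genes. Fbln5, needed for elastic fibre assembly, was lower in Py8119 cultures (-3.63 ± 0.24) and tumours (-3.11 ± 0.22), as was Ltbp2, a microfibril-associated protein (-4.18 ± 0.20 and -2.76 ± 0.14). Fbn2 (-2.41 ± 0.20) and Efemp1 (-2.41 ± 0.31) were lower in tumours with Eln.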

How the data were processed

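RNA from 21 samples was measured on Affymetrix whole-transcript mouse arrays (WT PLUS assay). Deposited values are log2 signals, made by the authors with RMA per the submitters' processing notes. Those notes name limma as well, with no version of either. No date or batch of hybridization is in the labels. The number of arrays limits the precision.

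Of 41345 probe sets, 23521 carried a single gene symbol in the platform annotation, 1814 several and 16010 none. Only single-symbol probe sets were kept. A gene with more than 1 (1082 genes) was represented by its probe set of highest mean over the arrays, which gave 22180 genes. No filter on low signal was applied, so all 37 measured members entered each test. Tests used limma 3.58.1 (R 4.3.3) with lmFit and eBayes, and calls used p-values adjusted by Benjamini-Hochberg over all genes at 0.05. The 6 culture arrays made 1 fit, the 15 tumour arrays a fit of 3 groups, each line's cultures and tumours a fit, and the 16 arrays of the unmixed groups the interaction. Fold and percent values were computed from these log2 values. The procedure was tested on simulated data. Figures used matplotlib 3.10.9 in Python 3.11.15.

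Members, role groups, pathway and marker lists were chosen with earlier results of these data known, so they give no independent support. All members may be named, in order of role and of the size of called differences. From each pathway list at most 4 called genes with the largest differences per comparison were named by rule. Others named from these lists, and marker genes, were chosen after their values were seen. Alternatives were quantile normalization, centring of arrays on their medians, leaving out genes of low mean signal, averaging a gene's probe sets, a robust prior with an intensity trend, a single fit of the 21 arrays, the replicate number as a block, each array left out and a threshold of 0.01. The fat tissue alternatives were added after the data were seen. Same-numbered samples of compared groups had deviations that correlated between -0.234 and 0.257, and in no comparison did every pair exceed 0.1, so the numbers were not used to pair samples.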

Additional observations from a re-analysis of the deposited data

Results flagged for a closer look

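In 5 cases 1 tumour stood far from the others of its group by Dixon's criterion, among 111 groups of 5 tumours tested; chance alone flags about 1 in 20 such groups. Col4a5 was at 7.21 in Py117 tumour 5, with the nearest at 6.83. In Py8119 tumour 4, Col14a1 was at 7.02 (nearest 6.78), Sparc at 11.98 (nearest 11.69) and Eln at 7.39 (nearest 6.87). Pcolce was at 9.28 in Py8119 tumour 5 (nearest 9.53).

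For 29 genes the change from culture to tumour differed between the lines in the interaction test of limma (adjusted p under 0.05), given as the log2 change in Py8119 minus that in Py117. Fibrillar collagens were Col1a1 (-1.63), Col1a2 (-2.80), Col3a1 (-2.89), Col5a1 (-1.75), Col5a2 (-1.70) and Col11a1 (-2.14). Other collagens were Col4a1 (-3.28), Col4a2 (-2.54), Col15a1 (-1.48), Col18a1 (1.28), Col6a1 (-1.21), Col6a3 (-1.48) and Col14a1 (-1.87). Crosslinking and processing genes were Lox (-2.45), Loxl1 (-1.70), Loxl3 (-2.09), Plod1 (-1.10), Plod2 (-0.59), Serpinh1 (1.26), Bmp1 (1.56), Pcolce (-2.45) and Pcolce2 (1.97). Matrix glycoproteins and elastic fibre genes were Fn1 (1.16), Sparc (-3.87), Postn (1.27), Fbln1 (-1.85), Fbln2 (-2.18), Eln (-3.23) and Mfap5 (-1.92). The values of Lox, Col11a1 and Col14a1 draw on groups under the background level and are limited by it.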

How the results depend on the processing

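Under quantile normalization or centring of arrays on their medians no called gene of the 37 changed sign in any comparison, and 7 and 5 of their calls, respectively, were lost. Centring shifted the median of all genes to 0.136 in culture (-0.01 uncentred), 0.114 between unmixed tumours (0.01), and -0.255 and -0.258 from culture to tumour in Py117 and Py8119. It gave 7529 genes lower in Py117 tumours than cultures, and 2358 higher and 9046 lower in Py8119 tumours than cultures. Counts of the 37 genes that moved by over 1.5 times were those lower in Py8119 cultures, 7 with 1 fit of all arrays, and those lower in Py117 tumours than cultures, 1 in place of 2 with quantile normalization, at a threshold of 0.01, in the replicate block and without the fat-rich tumours. The genes lower in Mixed than in Py8119 tumours, 36 of all, were 71 with quantile normalization, 85 with centring, 60 without genes of low signal and 63 in 1 fit of all arrays. Without genes of low signal 2483 genes were lower in Mixed than in Py117 tumours.

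At a threshold of 0.01, 3653 genes were called in culture (1935 higher, 1718 lower), 224 between Mixed and Py8119 tumours (221 higher, 3 lower), 4495 between Py117 tumours and cultures (2527 lower) and 1674 in the interaction (962 positive, 712 negative). Leaving out 1 array at a time gave 14 to 15 higher and 8 to 10 lower of the 37 genes in culture, 7 to 11 and 20 between unmixed tumours, 6 to 10 and 18 to 20 for Mixed against Py117, 26 to 29 and 1 to 3 for Py117 tumours against cultures, 20 to 22 and 4 to 7 for Py8119, and 6 to 7 and 21 to 23 in the interaction. Genes lower in Mixed than in Py8119 tumours then numbered 11 to 42 in place of 36, fewest (11) without Mixed tumour 2, and 21 or fewer also without Mixed tumour 1 or 3 or Py8119 tumour 1, 2 or 3. The 1 gene of the 37 lower in Py117 tumours came without Py117 culture 2 or 3. The median place of Mixed tumours was 89.1% to 97.2%.

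With the replicate number as a block, 15 genes were higher and 11 lower in culture, 9 and 20 between unmixed tumours and 19 and 4 in Py8119 tumours against cultures, and 28 and 1 in Py117 tumours against cultures. Reversals were confined to the fat tissue alternatives, added after the data were seen: Fn1 between unmixed tumours (-0.011 without the fat-rich tumours) and Loxl3 between Mixed and Py117 tumours (-0.0020 with the covariate, -0.055 without those tumours). None of these 3 values passed the threshold (adjusted p 0.955, 0.993 and 0.771 in limma). The cause was not tested, except that a stricter threshold and fewer genes or arrays change the counts by construction. No detection call was used, and background was judged only from the receptor genes.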
